A study of Homo sapiens with 10 samples.

Results

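The genes described here are 10 members of the LIN28 and let-7 axis and of the embryonic programme: the RNA-binding proteins LIN28A, LIN28B, IGF2BP1, IGF2BP2 and IGF2BP3, the chromatin protein HMGA2, and SALL4, L1TD1, DPPA4 and DNMT3B, which mark embryonic and pluripotent cells. They were taken by symbol and make up 10 of the 28265 gene symbols in the count files, and all 10 were among the 21014 genes tested. The list was put together with results of these libraries in view, to follow how embryonic expression was lost. The changes of the 10 genes over time are therefore given as values with their errors and without p-values. Calls by a test are counted and named only as a description, beside the share of all genes called. The libraries are bulk RNA-seq of NKX2-1 GFP+ cells, isolated by FACS from thyroid organoids that had been differentiated from human embryonic stem cells, on days 16, 23, 31, 38 and 45. There were 2 libraries for each day and 10 in all, from pooled wells of organoids.

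All libraries came from the line ESIBIe003-A-6, which derives from HES3 cells, carries GFP in an NKX2-1 allele and holds doxycycline-inducible NKX2-1 and PAX8 transgenes. The line was grown from selected lentiviral clones. By the study's methods, all cells had received Activin A and then doxycycline before the earliest day collected. Day 16 cells came from basal medium, and day 23 and day 31 cells had been given 8-br-cAMP, a cell-permeable cAMP analogue. Day 38 cells had been moved to recombinant TSH with dexamethasone, and day 45 cells also received the TGFβ receptor inhibitor SB431542. The labels name c-AMP for day 16 as well, and they leave dexamethasone out on day 45. They also name c-AMP for day 31, while the study's schedule places the change to TSH shortly before that day. Time and medium therefore changed together and cannot be told apart, and cells kept on cAMP to days 38 and 45 were not analysed here. The sort selects for NKX2-1, which forebrain and lung cells also express, and reads of the transgenes cannot be told apart from those of the endogenous genes.

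The sorted cells carried thyroid markers at every day. PAX8, a thyroid transcription factor and also a transgene, stood at 728 and 572 CPM (read counts scaled to library size with TMM factors, which correct for library composition) on day 16 and at 536 and 500.0 on day 45. TG, the precursor protein of thyroid hormone, stood at 10.7 and 11.7 CPM on day 16 and at 7964 and 7525 CPM on day 45. Of the 11 thyroid identity genes, 6 were called higher and 4 lower on day 45 than on day 16 by the quasi-likelihood test of edgeR, at a Benjamini-Hochberg adjusted p under 0.05, which called 12.9% of all genes higher and 11.7% lower. Of these 10 calls, 5 were lost when a library was left out, NKX2-1, PAX8 (−0.16 without the day 16 replicate 1) and IYD (−0.24) among the lower and HHEX and SLC5A5 among the higher.

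LIN28A and LIN28B are paralogous RNA-binding proteins that bind the precursors of the let-7 microRNAs and block their maturation. Mature let-7 in turn represses transcripts that carry its sites, LIN28 transcripts among them, and this loop is known for holding embryonic cells in a proliferating and poorly differentiated state. The IGF2BP proteins bind and stabilize transcripts, and HMGA2, which bends DNA in chromatin, is a classical let-7 target that carries several sites in its 3′ UTR. SALL4 is a zinc finger transcription factor, L1TD1 an RNA-binding protein derived from a transposon, DPPA4 a chromatin protein of the early embryo and DNMT3B a DNA methyltransferase that adds methyl groups to unmethylated sites. Mature microRNAs were not measured in these libraries.

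The sequences of the let-7 family are shown because all of the sites discussed here pair with its seed. RefSeq (GRCh38.p14) holds 9 mature names of the family, and all 9 share the seed GAGGUAG, bases 2 to 8, printed in capitals.
let-7a-5p: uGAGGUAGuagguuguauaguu
let-7b-5p: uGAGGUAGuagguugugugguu
let-7c-5p: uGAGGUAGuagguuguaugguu
let-7d-5p: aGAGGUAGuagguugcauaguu
let-7e-5p: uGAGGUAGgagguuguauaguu
let-7f-5p: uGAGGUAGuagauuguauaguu
let-7g-5p: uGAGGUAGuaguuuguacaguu
let-7i-5p: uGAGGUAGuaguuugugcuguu
miR-98-5p: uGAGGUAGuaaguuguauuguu

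LIN28 proteins bind the loop of let-7 precursors, where a GGAG stretch is the known contact. Of the 12 hairpins of the family, 9 held GGAG between base 31 and the last 20 bases, and 3 did not (let-7a-3, let-7b and miR-98). A hairpin of each kind is shown, with GGAG in capitals where it was found. The let-7g hairpin lies at chr3:52268278-52268361 on the minus strand and the let-7a-3 hairpin at chr22:46112749-46112822 on the plus strand.
let-7g: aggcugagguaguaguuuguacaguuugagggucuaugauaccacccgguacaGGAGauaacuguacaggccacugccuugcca
let-7a-3: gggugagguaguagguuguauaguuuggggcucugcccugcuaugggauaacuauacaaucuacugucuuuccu

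The 3′ UTRs of the 10 genes were searched on the transcript strand for CTACCTCA, which pairs with the seed and ends in an A. In the canonical transcripts of GENCODE 44, 7 of the 10 genes held at least 1 such site (70%), against 706 of 18735 genes with a 3′ UTR (3.77%) and 626 of the 10048 genes whose 3′ UTR had at least 956 bases (6.23%), the length of the shortest among the 10. The match is a description of the sequence, and known targets were part of the choice of genes. LIN28B held 2 sites and IGF2BP1 held 3. LIN28A, IGF2BP2, IGF2BP3, HMGA2 and SALL4 held 1 each. With the last A left out of the search, LIN28B, IGF2BP1 and HMGA2 held 4 sites each. L1TD1, DPPA4 and DNMT3B held none by either search. Where the longest annotated 3′ UTR was used in place of the canonical one, HMGA2 lost its site and 6 of the 10 genes held one. The sites are shown with the 14 bases before them, with CTACCTCA in capitals, of which the first 7 bases pair with the seed and the last A lies opposite base 1.
LIN28A, chr1:26427349-26427370, plus strand: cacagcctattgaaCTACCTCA
LIN28B, chr6:105078813-105078834, plus strand: cccggttgcaaagtCTACCTCA
LIN28B, chr6:105081422-105081443, plus strand: tttacagcaaaaggCTACCTCA
IGF2BP1, chr17:49051062-49051083, plus strand: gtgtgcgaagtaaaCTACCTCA
IGF2BP1, chr17:49053699-49053720, plus strand: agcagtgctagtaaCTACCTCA
IGF2BP1, chr17:49054353-49054374, plus strand: tataaatggattaaCTACCTCA
IGF2BP2, chr3:185644220-185644241, minus strand: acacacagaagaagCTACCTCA
IGF2BP3, chr7:23311795-23311816, minus strand: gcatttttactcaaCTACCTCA
HMGA2, chr12:65963299-65963320, plus strand: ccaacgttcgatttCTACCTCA
SALL4, chr20:51782923-51782944, minus strand: aagctttaatttatCTACCTCA

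Counted reads ranged from 7247268 to 10333933 per library, so that the floor of 3 counts, the most that a count of 0 allows, corresponded to 0.307 to 0.436 CPM and covers counting error only. All 10 genes were lower on day 45 than on day 16, but they fell into different courses. LIN28A was nearly lost by day 23, LIN28B and DPPA4 mostly from day 38 on, SALL4 and L1TD1 in steps, and IGF2BP1, IGF2BP2, IGF2BP3, HMGA2 and DNMT3B kept between 37.9 and 77.1% of their day 16 mean level on day 45. In bulk RNA from sorted cells, fewer cells that express a gene and less RNA of it per cell cannot be told apart.

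**Figure D1:**
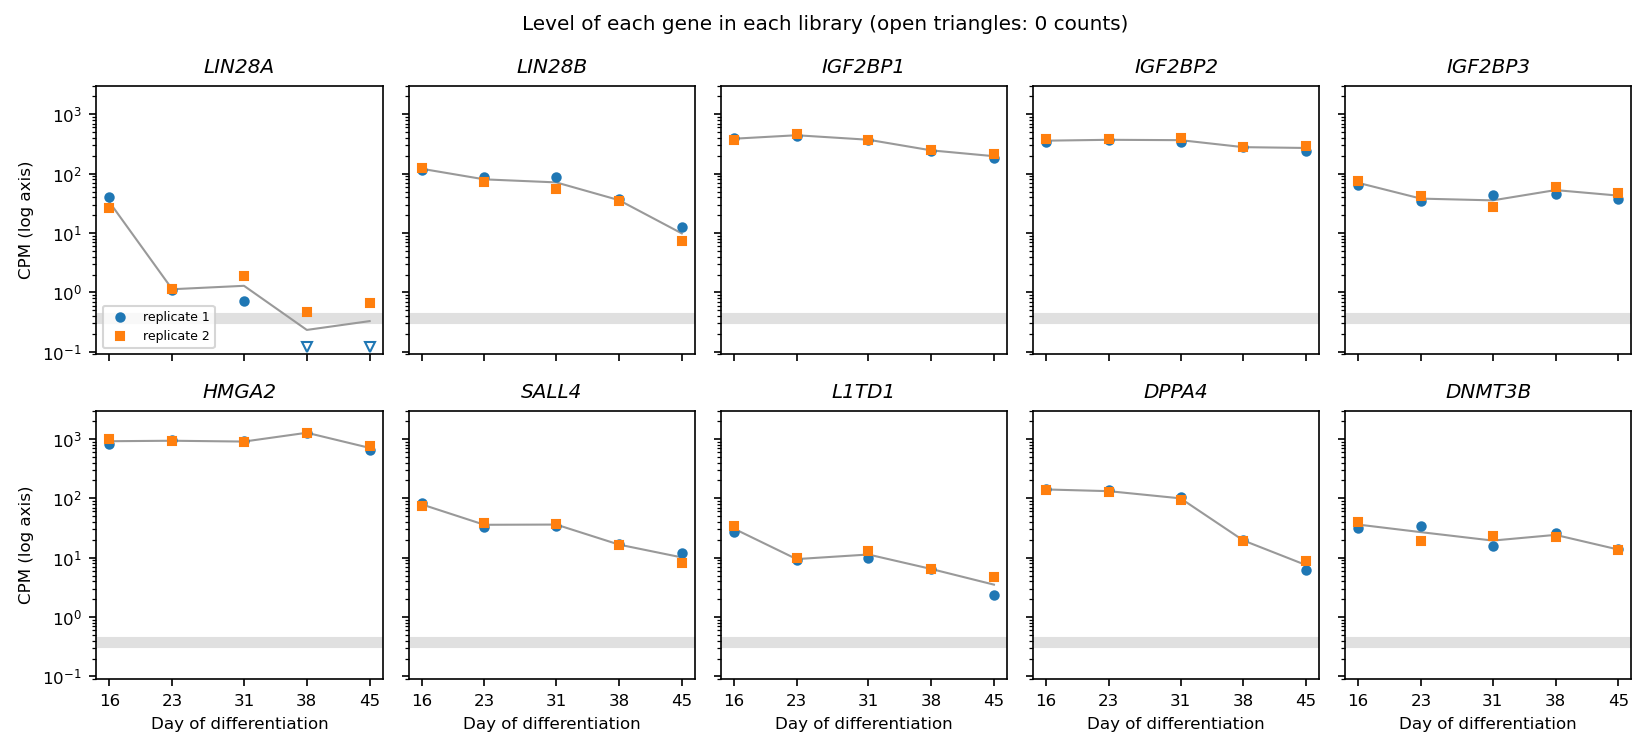
CPM of the 10 genes in each library (log axis) against the day of differentiation; points are libraries, grey lines join the means of the 2 libraries of a day, and the grey band is the floor of 3 counts. LIN28A drops from 26.6 and 39.8 CPM to 1.11 and 1.14 between days 16 and 23 and has 0 counts in a library of day 38 and of day 45 (open triangles), while HMGA2 stays between 640.1 and 1281 CPM.

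LIN28A, on chromosome 1 from 26410817 to 26429728 of GRCh38 (plus strand), had 314 and 216 counts on day 16 (39.8 and 26.6 CPM). It had 10 counts in each day 23 library, 7 and 16 on day 31, 0 and 4 on day 38, and 0 and 6 on day 45. Both day 16 libraries thus stood above all 8 later libraries, and from day 38 the counts lay around the floor. By summed counts scaled to library size, the level on day 16 was 29.4 times that on day 23 (95% exact interval 18.9 to 48.6, counting error only). It was 88.5 times that on day 45 (40.4 to 242). The change to day 45 moved widely when a library was left out, with edgeR log2 differences of −11.15 to −5.63 against −6.47 with all libraries. Between days 23 and 31 the log2 difference was 0.18 ± 0.75 (SE), well within its error. Between days 38 and 45 both days were at or near the floor, and nothing is read from that difference (0.64 ± 1.12).

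LIN28B, on chromosome 6 from 104936616 to 105083332 (plus strand), stood at 116 and 126 CPM on day 16, 88.2 and 72.3 on day 23, 86.6 and 56.1 on day 31, 36.8 and 34.7 on day 38, and 12.5 and 7.21 on day 45. Days 23 and 31 overlapped, and apart from these each day lay below the days before it. The log2 difference was −1.00 ± 0.22 from day 31 to day 38 and −1.88 ± 0.24 from day 38 to day 45, so the later week held the larger part, and from day 16 to day 45 it was −3.64 ± 0.25, leaving 8.15% of the day 16 mean. LIN28B-AS1, which overlaps LIN28B on the other strand, had counts in only 2 libraries, at means of 0.768 CPM on day 31 and 0.108 on day 38.

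Per kb of exon, LIN28B was the more abundant of the pair at every day. LIN28A made up 34.0 and 24.0% of the summed LIN28 level on day 16 and 1.84 and 2.31% on day 23. On day 45 the summed level was low, and LIN28A took 0 and 12.0% of it, the latter from 6 counts.

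**Figure D2:**
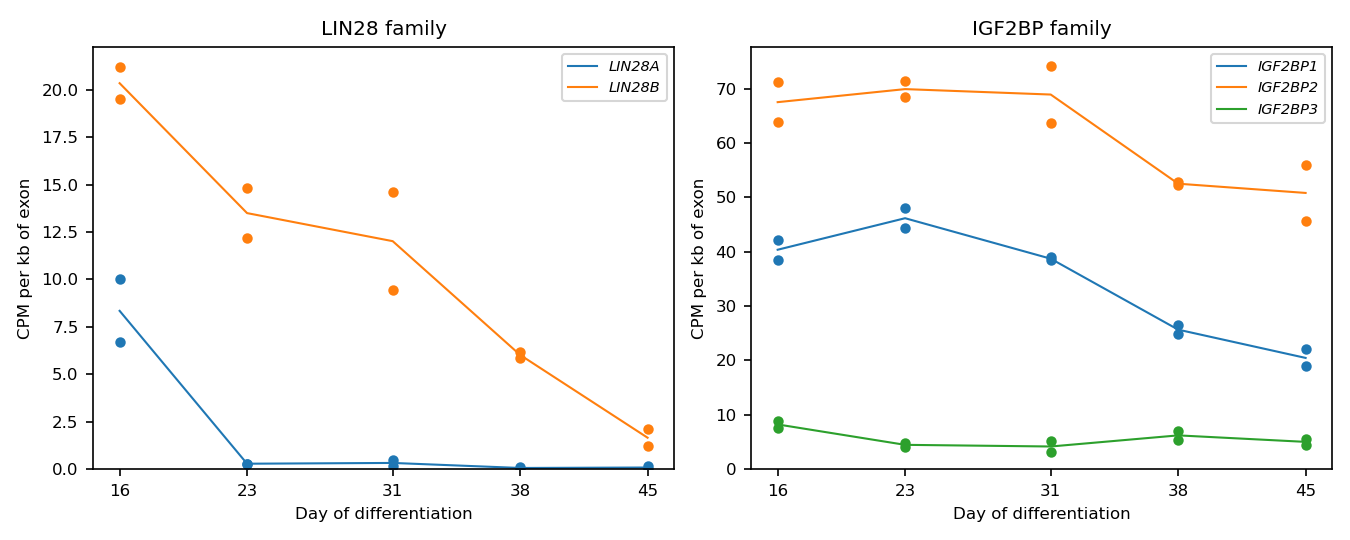
Level per kb of exon (CPM per kb) of the LIN28 genes (left) and the IGF2BP genes (right) in each library against the day of differentiation; points are libraries and lines join day means. LIN28B lies above LIN28A at each day, and the order IGF2BP2, IGF2BP1, IGF2BP3 is the same at all 5 days.

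IGF2BP1, on chromosome 17 from 48997385 to 49056145 (plus strand), was measured at 406 and 371 CPM on day 16, 426 and 462 on day 23, 376 and 369 on day 31, 239 and 255 on day 38, and 182 and 212 on day 45. The days up to 31 all lay above the later days, with the highest mean on day 23. From day 31 to day 38 the log2 difference was −0.59 ± 0.12, and from day 16 to day 45 it was −0.98 ± 0.13.

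IGF2BP2, on chromosome 3 from 185643130 to 185825042 (minus strand), and HMGA2 had the smallest relative changes from day 16 to day 45 among the 10. IGF2BP2 stood at 339.8 and 379.6 CPM on day 16, 365 and 380.0 on day 23, 339.5 and 395 on day 31, 282 and 278 on day 38, and 243 and 298 on day 45. The day 16 to 31 libraries overlapped one another, and so did those of days 38 and 45, while each later library lay below each earlier one. The log2 difference from day 16 to day 45 was −0.41 ± 0.13. IGF2BP2-AS1, in an intron on the other strand, went from 19.9 ± 1.00 CPM on day 38 to 45.7 ± 10.7 on day 45 (SD, n = 2), and edgeR called it higher (log2 fold change 1.20, adjusted p = 0.00128).

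IGF2BP3, on chromosome 7 from 23310209 to 23470491 (minus strand), was the least abundant of the 3 per kb. It was at 64.3 and 76.0 CPM on day 16, 34.5 and 41.6 on day 23, 43.8 and 27.1 on day 31, 45.7 and 60.2 on day 38, and 38 and 47.4 on day 45. Only the day 16 libraries lay apart from the rest, and the 4 later days overlapped in part. The log2 difference was −0.88 ± 0.23 from day 16 to day 23, 0.57 ± 0.23 from day 31 to day 38 and −0.71 ± 0.23 from day 16 to day 45. The value from day 31 to day 38 rested on single libraries, with 0.27 without the day 31 replicate 2 and 0.95, which passed the test, without the day 31 replicate 1. MALSU1, which shares exon sequence with it on the other strand, stood at 14.8 and 20.1 CPM on day 16 and at 5.23 and 20.3 on day 45, so that its day 45 libraries lay far apart.

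HMGA2, on chromosome 12 from 65824460 to 65966291 (plus strand), had the most counts of the 10 genes. Its level was 815 and 1017 CPM on day 16, 946 and 920.1 on day 23, 907 and 901 on day 31, 1281 and 1262 on day 38, and 640.1 and 773 on day 45. Both day 38 libraries lay above all others and both day 45 libraries below all others. The log2 difference was 0.49 ± 0.12 from day 31 to day 38, −0.85 ± 0.12 from day 38 to day 45 and −0.37 ± 0.12 from day 16 to day 45. Without TMM factors the median of all genes moved by −0.20 between days 31 and 38, and the difference of HMGA2 was 0.27.

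HMGA2-AS1 overlaps exons of HMGA2 on the other strand and was itself well detected, at 136 ± 21.1 CPM on day 16, 209 ± 5.93 on day 31, 141 ± 20.8 on day 38 and 127 ± 15.0 on day 45. It moved against HMGA2 from day 31 to day 38, where edgeR called it lower (log2 fold change −0.57, adjusted p = 0.00601). The strand setting of the counting is not given in the sources used here, so the reads of such overlapping pairs cannot be told apart with certainty, and the values of HMGA2, IGF2BP3, LIN28B and IGF2BP1, which share exon sequence with genes on the other strand, are uncertain to that extent. The genes opposite IGF2BP1 were not analysed here. RPSAP52, a pseudogene transcript that also overlaps HMGA2, was far less abundant, at 1.12 ± 0.0233 CPM on day 16 and 6.13 ± 1.07 on day 45.

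SALL4, on chromosome 20 from 51782331 to 51802521 (minus strand), stood at 84.7 and 73.5 CPM on day 16, 33.4 and 38.3 on day 23, 34.8 and 37.5 on day 31, 16.7 and 16.4 on day 38, and 12.0 and 8.08 on day 45. It went down in steps, with days 23 and 31 overlapping and no overlap otherwise. The log2 difference was −1.14 ± 0.24 from day 16 to day 23, −1.12 ± 0.25 from day 31 to day 38 and −2.98 ± 0.27 from day 16 to day 45.

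L1TD1, on chromosome 1 from 62194849 to 62212328 (plus strand), was at 27.0 and 34.7 CPM on day 16, 8.98 and 9.95 on day 23, 9.72 and 12.8 on day 31, 6.37 and 6.52 on day 38, and 2.32 and 4.70 on day 45, the last from 16 and 43 counts. The course resembled that of SALL4, again with days 23 and 31 overlapping. Its log2 difference was −1.70 ± 0.41 from day 16 to day 23 and −3.11 ± 0.44 from day 16 to day 45.

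DPPA4, on chromosome 3 from 109326144 to 109337546 (minus strand), kept 71.0% of its day 16 mean on day 31 and 13.9% on day 38. It stood at 141 and 140.4 CPM on day 16, 137 and 127 on day 23, 106 and 93.3 on day 31, 20 and 19 on day 38, and 6.24 and 8.74 on day 45. Each day lay below the day before it, and the drop of −2.36 ± 0.19 on the log2 scale from day 31 to day 38 was the largest of its 4 steps. On day 45, 5.33% of the day 16 mean was left (log2 difference −4.21 ± 0.21).

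DNMT3B, on chromosome 20 from 32762385 to 32809359 (plus strand), was lowly expressed, at 32.1 and 40.0 CPM on day 16, 34.7 and 19.2 on day 23, 15.9 and 22.9 on day 31, 26.1 and 22.4 on day 38, and 13.8 and 13.5 on day 45. Neighbouring days overlapped up to day 38 and the replicates of day 23 lay far apart, while both day 45 libraries lay below both of day 38. The log2 difference was −0.83 ± 0.31 from day 38 to day 45 and −1.40 ± 0.31 from day 16 to day 45, after −0.42 ± 0.30, −0.48 ± 0.30 and 0.32 ± 0.30 over the earlier steps. Without the day 23 replicate 1 the step to day 23 was −0.91 and that to day 31 0.01, and without the day 23 replicate 2 they were −0.06 and −0.84.

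The order of the levels was taken per kb of exon, since the genes differ in length. On day 16 it ran from IGF2BP2 (67.5 CPM per kb) and HMGA2 (60.8), which overlapped, over IGF2BP1 (40.3), DPPA4 (28.3), LIN28B (20.3) and SALL4 (13.7) to LIN28A (8.35), IGF2BP3 (8.22) and L1TD1 (8.06), which overlapped one another, and DNMT3B (5.24). On day 45 IGF2BP2 (50.8) and HMGA2 (46.9) still led and overlapped, followed by IGF2BP1 (20.4) and IGF2BP3 (5.01). DNMT3B (1.99), SALL4 (1.74), LIN28B (1.66) and DPPA4 (1.51) then overlapped with their neighbours in the order, above L1TD1 (0.916) and LIN28A (0.0824). With the length of the canonical transcript in place of all exons, HMGA2 came ahead of IGF2BP2 at every day, and the day 16 levels of HMGA2 (223 CPM per kb), DPPA4 (50.4), IGF2BP3 (16.4) and DNMT3B (8.31) were higher by over 1.5 times, which put DPPA4 ahead of IGF2BP1 and IGF2BP3 ahead of SALL4 and LIN28A.

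The weekly steps are set side by side with all genes tested, and since the genes were chosen on these libraries nothing is read from their counts. From day 16 to day 23, edgeR called 4 of the 10 lower (LIN28A, IGF2BP3, SALL4 and L1TD1) and 0 higher, where 5.33% of all genes were called lower, 5.60% higher and 10.9% either way, and the median log2 difference of the 10 was −0.51 against −0.02 over all genes. In 6 of the 10 both day 23 libraries lay below both day 16 libraries, as for 25.6% of all genes, and in 1 (IGF2BP1) both lay above, as for 22.8%. The calls of IGF2BP3 (log2 difference −0.76) and L1TD1 (−1.51) were lost without the day 16 replicate 2, and that of IGF2BP3 also without the day 23 replicate 1 (−0.75), while LIN28B passed under several alternatives (−0.58 to −0.63).

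From day 23 to day 31, both labelled c-AMP, edgeR called 0 of the 10. Of all genes, 0.666% were called lower, 1.58% higher and 2.25% either way. DESeq2 also called 0. Before adjustment, 2 of the 10, DPPA4 and IGF2BP1, had an edgeR p under 0.05, from which nothing is read. The median log2 difference of the 10 was −0.07, the nearest to 0 of the 4 steps. Both day 31 libraries lay below both day 23 libraries in 3 of the 10, against 18.9% of all genes, and above in 0, against 20.4%.

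From day 31 to day 38, the labels change from c-AMP to TSH and dexamethasone. At this step edgeR called 5 lower (LIN28B, IGF2BP1, IGF2BP2, SALL4 and DPPA4) and 1 higher (HMGA2). Of all genes, 6.23% were called lower, 8.80% higher and 15.0% either way. The median of the 10 was −0.70 against 0.00. The libraries lay wholly below in 7 of the 10, where they did in 26.9% of all genes, and wholly above in 2 (HMGA2 and IGF2BP3), where they did in 30.2%. The call of LIN28B was lost without the day 31 replicate 1 (−0.66). IGF2BP2 lost its call without the day 31 replicate 2 (−0.29), the day 38 replicate 1 (−0.40) or the day 38 replicate 2 (−0.38). LIN28A passed under several alternatives, among them the fit without TMM factors (−2.62). Its value rested on few counts and ran from −6.47 to −1.42 when a library was left out, against −2.42 with all libraries. Without TMM factors HMGA2 was not called, and 33.3% of all calls were higher in place of 58.5%.

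For day 45 the labels name SB431542. From day 38 to day 45, 3 were called lower (LIN28B, HMGA2 and DPPA4) and 0 higher. Of all genes, 6.35% were called lower, 4.85% higher and 11.2% either way. The median was −0.78 against −0.02, with LIN28A, at or near the floor, among the 10. In 7 of the 10 the later libraries lay wholly below, against 29.5% of all genes, and in 0 wholly above, against 25.3%. SALL4 also passed without the day 45 replicate 1 (−1.04), and IGF2BP1 without either day 16 library (−0.34 and −0.33). Consecutive steps share the libraries of the day between them, so their values are not independent.

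Over the whole course, from day 16 to day 45, all 10 were called lower, where 11.7% of all genes were called lower, 12.9% higher and 24.6% either way, with a median log2 difference of −2.19 against 0.00. In all 10 both day 45 libraries lay below both day 16 libraries, as they did for 28.8% of all genes, while both lay above for 29.0%. The calls of IGF2BP2 (−0.33), IGF2BP3 (−0.59) and HMGA2 (−0.21) were lost without the day 16 replicate 2, and likewise without the day 45 replicate 1 (−0.27, −0.57 and −0.24). In a fit of only the 4 libraries compared, those of IGF2BP2 (−0.42) and HMGA2 (−0.38) were lost.

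**Figure D3:**
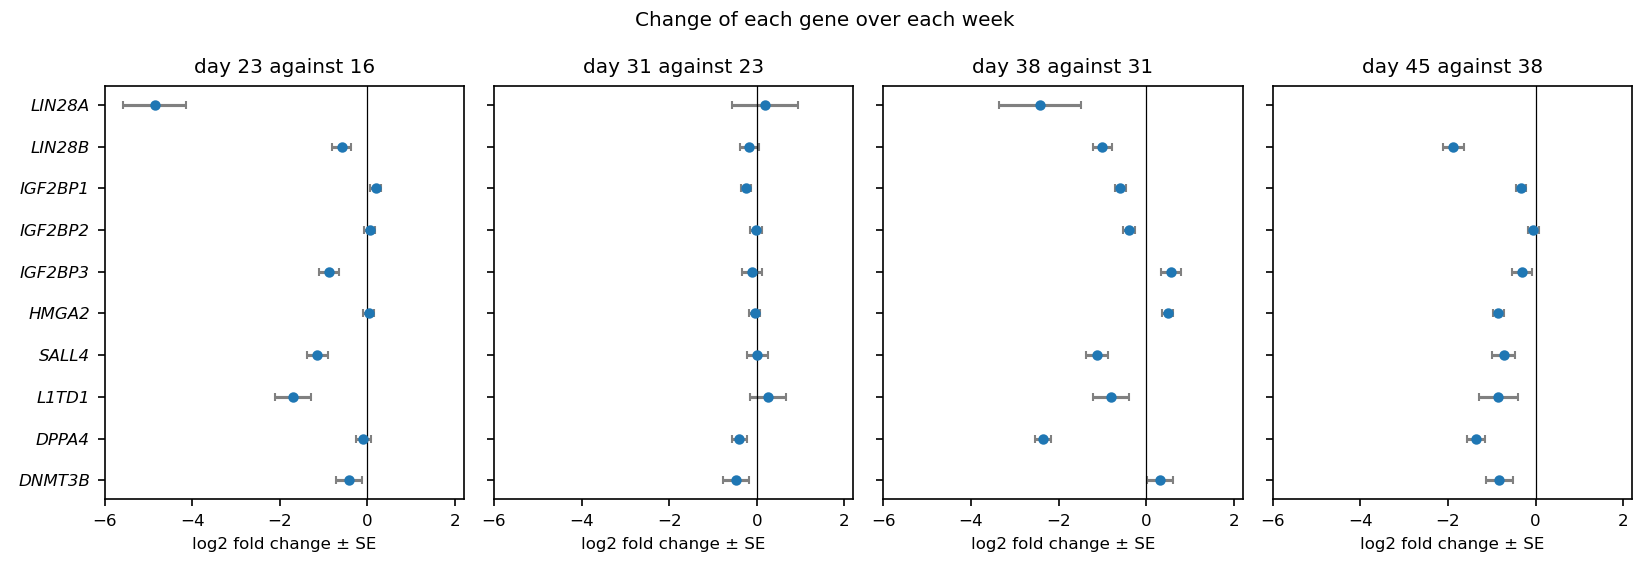
Log2 fold change ± SE (edgeR, 2 libraries per day) of the 10 genes over the 4 steps between neighbouring days; LIN28A is not drawn for day 45 against 38, where it was at or near the floor. The step to day 23 carries the drop of LIN28A, the step to day 31 lies near 0 for most genes, the step to day 38 holds the drop of DPPA4 (−2.36) and the higher level of HMGA2 (0.49), and the step to day 45 the drop of LIN28B (−1.88).

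As a description across the 10 libraries, which share their days, DPPA4 ran closest to IGF2BP1 (Pearson r = 0.98 on log2 CPM) and LIN28B to DPPA4 (0.94), and LIN28A to L1TD1 (0.92). HMGA2 and IGF2BP3 followed none of the others closely, with the highest r of HMGA2 at 0.48 (DNMT3B) and of IGF2BP3 at 0.54 (LIN28A). Among all genes of at least 5 CPM, those most like LIN28B were ZNF883 (r = 0.991), FIGN (0.986) and RNF146 (0.986), and FIGN went from 395 CPM on day 16 to 36.6 on day 45. Those most like LIN28A were RIPK4 (0.972), TMEM164 (0.959) and CAPRIN2 (0.955), all with their highest mean on day 16. NHLRC2 (0.973) and H2BC15 (0.946) were the most like HMGA2, both with their highest mean on day 38.

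The genes around the 10 were taken from lists by function, chosen like the 10 with earlier results of these libraries known. All calls and adjusted p-values given for them come from the same edgeR fit, with Benjamini-Hochberg adjustment over the 21014 genes. That adjustment does not allow for the choice of the lists, so these p-values describe the genes named and test nothing about the lists. The enzymes that make let-7 and the proteins that carry it out were expressed at all days. Of 16 such genes, 2 were higher and 5 lower on day 45 than on day 16, with a median log2 fold change of −0.11 against 0.00 over all genes, where 24.6% of all genes were called. AGO4 (−1.79 ± 0.18, adjusted p = 5.2e-10) and AGO1 (−1.40 ± 0.14, adjusted p = 1.4e-09), Argonaute proteins that hold the mature microRNA, fell, and AGO3 rose (0.66 ± 0.13, adjusted p = 0.000248). These 3 calls held under the 18 alternatives run for single genes, which set no minimum fold change, and the other 4 (AGO2, DROSHA, PRKRA and TNRC6A) were each lost when a library was left out.

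DICER1, which cuts the precursors, stood at 281 and 293 CPM on day 16 and 275 and 311 on day 45 (log2 fold change 0.03 ± 0.12, adjusted p = 0.912). TUT4, which adds uridines to precursors bound by LIN28, stood at 227 and 250.2 CPM on day 16 and 191 and 222 on day 45 (−0.21 ± 0.13, adjusted p = 0.281). DIS3L2, which degrades the uridylated precursors, was at 41.5 and 47.2 CPM and at 42.0 and 57.7 (0.17 ± 0.22, adjusted p = 0.640). None of these 3 passed the test. DGCR8, the partner of DROSHA in the nucleus, rose from day 16 to day 23 (0.92 ± 0.20, adjusted p = 0.00193) and fell from day 31 to day 38 (−0.94 ± 0.20, adjusted p = 0.000956).

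Of the 8 host genes of let-7 hairpins on the list, 5 were in the files, and 0 of these were higher and 1 was lower on day 45, a share no larger than the 24.6% of all genes called either way. MIR99AHG, which hosts let-7c, rose from 22.1 and 28.6 CPM on day 16 to 146 and 141 on day 23 (log2 fold change 2.50 ± 0.20, adjusted p = 2.1e-11) and was back at 21.1 and 18.8 on day 45. MIR100HG, which hosts let-7a-2, was at 104 and 98.0 CPM on day 31, 284 and 299 on day 38 and 93.4 and 92.6 on day 45. Its log2 fold change was 1.53 ± 0.14 (adjusted p = 1.4e-10) for the rise and −1.65 ± 0.14 (adjusted p = 9.9e-11) for the fall. The rows of the 12 hairpins themselves summed to 119 to 227 counts per library, with 3 at 0 throughout, and as precursors they say nothing of the mature microRNAs.

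Of 22 other genes known as let-7 targets, 6 were higher and 5 lower on day 45 than on day 16, where 12.9% of all genes were higher and 11.7% lower, and their median log2 fold change was −0.17 against 0.00. TRIM71, a let-7 target and ubiquitin ligase of embryonic cells, fell from 162 and 142 CPM on day 16 to 69.5 and 54.3 on day 23, and stood at 52.7 and 49.5 on day 31, 31.6 and 39.9 on day 38 and 16.8 and 17.6 on day 45. From day 16 to day 45 its log2 fold change was −3.14 ± 0.21 (adjusted p = 3.4e-14), with every library of a later week below those of day 16. ARID3B, a DNA-binding protein (−1.93 ± 0.26, adjusted p = 2.6e-07), CDK6, a cell cycle kinase (−1.13 ± 0.13, adjusted p = 2.7e-08), and NR6A1, an orphan nuclear receptor of embryonic cells (−1.20 ± 0.31, adjusted p = 0.00324), fell too. The call of NR6A1 was lost without the day 16 replicate 1 (−0.97).

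Other targets rose. MYC, the growth-promoting transcription factor, went from 6.34 and 6.65 CPM on day 16 to 43.1 and 33.0 on day 45 (log2 fold change 2.55 ± 0.34, adjusted p = 3.6e-07). PLAGL2 (1.31 ± 0.14, adjusted p = 3.8e-09), a zinc finger factor, the D-type cyclins CCND1 (1.25 ± 0.15, adjusted p = 3.2e-08) and CCND2 (0.94 ± 0.11, adjusted p = 5.3e-08), and the insulin receptor substrate IRS2 (1.21 ± 0.16, adjusted p = 3e-07) rose with it. The call of TGFBR1 (lower), a receptor of TGFβ, was lost in several alternatives, among them without the day 16 replicate 2 (−0.24).

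**Figure D4:**
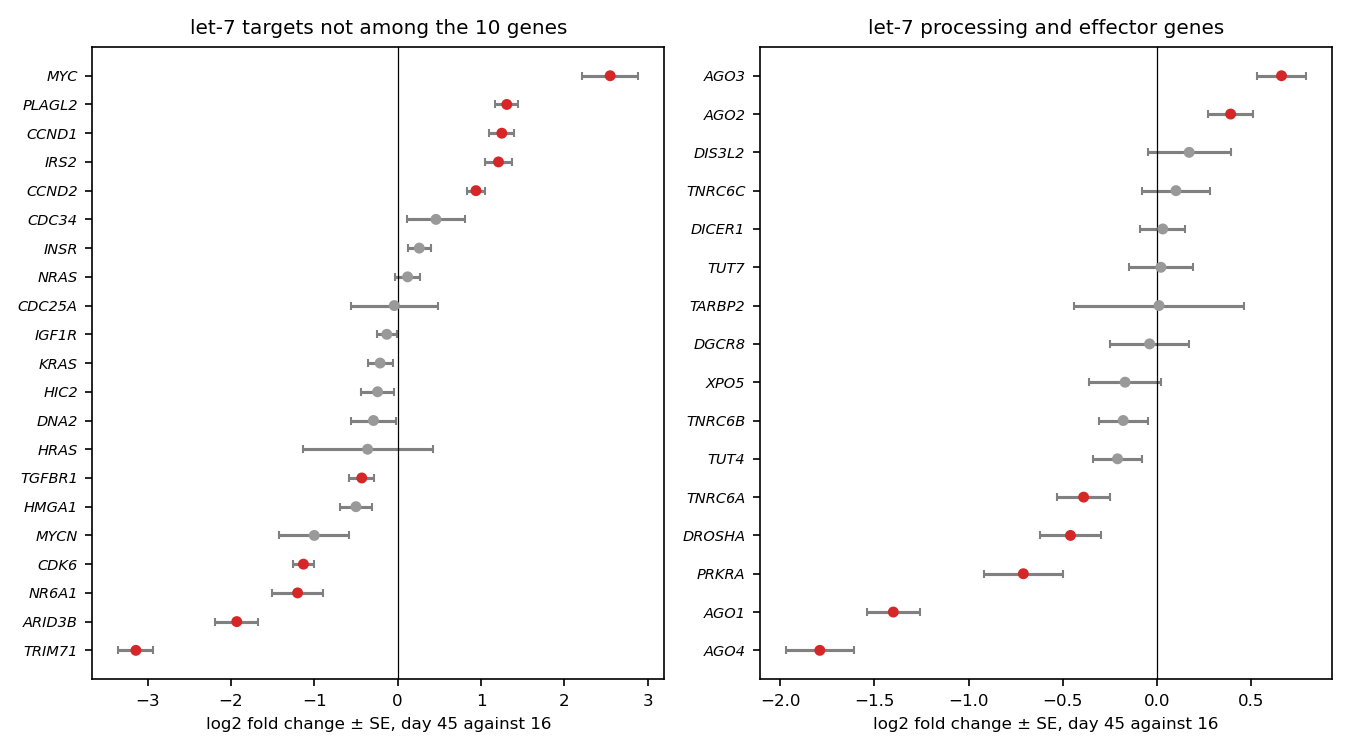
Log2 fold change ± SE on day 45 against day 16 (edgeR, 2 libraries per day) of 21 let-7 targets not among the 10 genes (left) and of genes that process let-7 or carry out its repression (right); red points passed an adjusted p of 0.05. The targets spread from TRIM71 (−3.14) to MYC (2.55), and the processing genes from AGO4 (−1.79) to AGO3 (0.66).

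Across all genes tested with an annotated 3′ UTR, 659 held the 8-base site, 7 of them among the 10. On day 45 against day 16, 19.6% of these were called lower and 15.0% higher, and of the 15582 without the site 12.8% were called lower and 15.7% higher. The median log2 fold changes were −0.09 and 0.04. From day 31 to day 38 the shares with and without the site were 12.4 and 7.13% called lower and 9.10 and 10.4% called higher, and from day 38 to day 45 they were 10.5 and 7.34% lower and 6.37 and 5.79% higher. From day 16 to day 23, the genes with the site were called lower in 7.89% and higher in 9.86%, and those without in 6.06 and 6.71%. With the 7-base site, the shares on day 45 against day 16 were 17.6% lower and 16.2% higher, against 12.5 and 15.7% without it, and the median was −0.01. The 3′ UTRs of the genes with the 8-base site were longer, with a median of 3204 bases against 1183, and the part of length in these shares was not tested.

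Of the core pluripotency factors, POU5F1 had at most 0.114 CPM in any library, NANOG was at 0.127 and 0.246 CPM on day 16 and at most 1.51 in any library, and DPPA3, DPPA5, UTF1 and KLF17 had 0 counts throughout. POU5F1 lies in the MHC region, and neighbours of it, chosen after its values were seen, were also nearly absent, with FLOT1, a gene of most cell types, at means of 0.499 to 2.36 CPM by day. The value of POU5F1 therefore says nothing about that gene. SOX2, which is also a foregut and neural gene, stood at 10.0 and 1.60 CPM on day 16, 24.0 and 21.3 on day 38 and 5.37 and 5.90 on day 45.

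Of 24 pluripotency genes outside the 10, 17 were tested, and 2 were higher and 5 lower on day 45 than on day 16, where 12.9% of all genes were higher and 11.7% lower. ZFP42, a zinc finger marker of embryonic stem cells, fell from day 16 to day 45 (log2 fold change −1.54 ± 0.37, adjusted p = 0.00176). ZFP42 also fell from day 31 to day 38 (−1.80 ± 0.36, adjusted p = 0.000412), where DPPA4 had its largest drop. These changes of ZFP42 did not differ beyond their errors. TDGF1, a co-receptor of NODAL, was at 5.33 and 7.88 CPM on day 16 and had 0 counts in both libraries of day 45 (adjusted p = 0.000269). The calls of DPPA2 and USP44 (both lower) and of POLR3G and LINC-ROR (both higher) were each lost when a library was left out. KLF4, which differentiated epithelia also express, fell from 92.3 and 92.4 CPM on day 16 to 15.7 and 15.4 on day 23 (−2.57 ± 0.22, adjusted p = 8.4e-11) and returned to 127 and 116 on day 45 (2.65 ± 0.21 from day 38, adjusted p = 4.1e-11).

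Of 7 paralogs of the 10, 0 were higher and 4 lower on day 45 than on day 16, where 12.9 and 11.7% of all genes were, with a median log2 fold change of −0.50. SALL2 (−1.80 ± 0.20, adjusted p = 9.9e-09) and SALL3 (−2.09 ± 0.36, adjusted p = 2.4e-05) fell, as SALL4 was lower, and SALL1 stood at 144 and 101 CPM on day 16 and 141 and 147 on day 45 (0.23 ± 0.15, adjusted p = 0.301). HMGA1, the paralog of HMGA2, was at 124 and 92.7 CPM and at 79.7 and 73.9 (−0.50 ± 0.19, adjusted p = 0.0568). DNMT3A, the paralog of DNMT3B, fell (log2 fold change −0.47 ± 0.14, adjusted p = 0.0123), a call lost without the day 45 replicate 2 (−0.38).

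Of 8 genes of DNA methylation, DNMT3A among them, 0 were higher and 2 lower on day 45, where 12.9 and 11.7% of all genes were, so the share called was close to that of all genes. TET1, which oxidizes methylated cytosine, stood at 209.8 and 212 CPM on day 31, 402 and 441 on day 38 and 215 and 251 on day 45. It rose (1.00 ± 0.13, adjusted p = 2.3e-07) and fell again (−0.86 ± 0.13, adjusted p = 6.5e-06), in the same weeks in which HMGA2 had its highest level. DNMT1, which copies methylation at replication, was at 74.9 and 75.2 CPM on day 16 and 94.7 and 76.7 on day 45 (0.19 ± 0.17, adjusted p = 0.478).

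Of 7 transcripts known to be bound by IGF2BP proteins, 4 rose and 2 fell from day 16 to day 45, where 12.9% of all genes were higher and 11.7% lower, and all 6 calls held under the same 18 alternatives. IGF2, the fetal growth factor that gave the family its name, rose from 1.01 and 1.60 CPM on day 16 to 109 and 88.7 on day 45 (log2 fold change 6.22 ± 0.36, adjusted p = 8.5e-16). H19, the noncoding RNA next to IGF2 and known to bind let-7, rose from 18.9 and 17.5 to 438 and 286 CPM (4.31 ± 0.22, adjusted p = 1.5e-17). CD44, an adhesion receptor, fell (−1.13 ± 0.13, adjusted p = 2.3e-08), with its lowest level on day 45.

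Of 20 proliferation genes, 0 were higher and 12 lower on day 45 than on day 16, where 12.9 and 11.7% of all genes were, and all 20 had a negative log2 fold change, with a median of −1.20. Their summed level was 1002 and 1121 CPM on day 16, 809 and 787 on day 23, 937 and 864 on day 31, 804 and 751 on day 38 and 472 and 597 on day 45, and the calls of CCNA2, CDC20 and E2F1 did not hold under all alternatives. The largest changes were those of MCM5 (−2.45 ± 0.37, adjusted p = 2.7e-06) and MCM2 (−2.26 ± 0.27, adjusted p = 3.9e-08), parts of the replicative helicase, and of the mitotic kinase BUB1 (−2.23 ± 0.31, adjusted p = 7.2e-07). MCM2 fell from day 31 to day 38 (−1.74 ± 0.26, adjusted p = 5.1e-06), one of 7 genes of the list called lower at this step. Among all genes, 6.23% were called lower and 8.80% higher at this step. Of the 7, MCM6 and FOXM1 lost their calls without a library of day 31 or day 38. TOP2A, which untangles replicated DNA, went the other way, from 153 and 140.0 CPM on day 31 to 226 and 226 on day 38 (0.62 ± 0.16, adjusted p = 0.00652), a call lost without the day 31 replicate 2 (0.55) and without TMM factors (0.41). MKI67, a marker of cycling cells, went from 239 and 194 CPM on day 16 to 81.4 and 123 on day 45 (−1.08 ± 0.16, adjusted p = 2.5e-06). The part of proliferation in the values of the 10 genes was not tested.

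Markers of other cell types that the sort could hold moved over the same days. The counts of markers called on day 45 against day 16 stand beside 12.9% of all genes called higher and 11.7% lower. Of 8 mesodermal markers all 8 were higher, and their summed level was 353 and 402 CPM on day 16, 368 and 439 on day 31, 1402 and 1423 on day 38 and 1485 and 1249 on day 45, with COL1A2, a collagen gene, the most abundant in each library. The calls of LUM and TNNT2 were lost without a library. HMGA2, which mesenchymal cells are also known to express, was highest on day 38, where this sum had risen, and lowest on day 45, where it stayed up. Of 5 hepatic markers 3 were higher on day 45, from sums of 7.73 and 12.1 CPM to 554 and 479.8, with SERPINA1 the most abundant.

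Of 9 lung and airway markers 8 were tested, and 5 were higher and 1 lower, with the calls of FOXJ1 and MUC5AC lost without a library. Their sum was highest on day 31, at 531 and 551 CPM, most of it SFTPB, and SFTPC and SCGB1A1, which define alveolar and club cells, were at or near 0. Of 8 neural progenitor markers 1 was higher (TUBB3) and 1 lower (OTX2), with sums of 23.9 to 50.7 CPM per library and SOX1 at 0 from day 38 on. Of 6 endothelial markers 1 was higher (TEK), with sums of 17.1 to 59.0 CPM, and PECAM1 was at 0 up to day 31. Of 5 germ cell markers, cells that also express LIN28A, SALL4 and DPPA4, 4 were tested and 2 were higher (PRDM1 and TFAP2C), with the call of TFAP2C lost without a library, while DAZL was at 0 throughout and DDX4 was at most 1.48 CPM. The part of these cell types in the levels of the 10 genes was not tested.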

How the data were processed

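Sorted NKX2-1 GFP+ cells were used for bulk RNA-seq with the Ovation SoLo kit. Raw read counts per gene symbol were deposited, which the authors had made with Trimmomatic, HISAT2 (GRCh38.p13) and HTSeq; the strand setting and versions are not given in the sources used here. Samples were grouped by the day in their titles. The members, gene lists and tests were chosen with earlier results of these data known.

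From the counts, CPM with TMM factors and edgeR 4.0.16 quasi-likelihood tests (R 4.3.3, limma 3.58.1) were computed for the 21014 genes that reached 5 counts in 2 or more libraries, with a mean per day over all 10 libraries (5 residual degrees of freedom) and Benjamini-Hochberg adjustment at 0.05. SE was taken as |log2 fold change|/√F. Log2 CPM for correlations had a prior count of 2. Likeness was searched for LIN28A, LIN28B and HMGA2. Other genes named were those of the lists, largest changes first. DICER1, TUT4, DIS3L2, DGCR8, MKI67, SALL1, HMGA1, DNMT1 and the overlapping genes were picked after their values were seen. The adjusted p-values given for list genes and for the genes so picked do not allow for that choice. Replicates of a day, each a pool of wells, differed by more than sampling noise (chi-square per degree of freedom 8.38 to 13.7), and p-values measure only the spread between such pools. No use of molecular identifiers is stated, so intervals and floors cover counting error only. Positions, exon lengths and 3′ UTRs came from GENCODE 44 on GRCh38 (25755 of 28265 symbols matched, all 10 members among them). On simulated counts for day 45 against 38 with 200 of 21014 genes changed, edgeR recovered 43% (32% of those with a log2 change of 1, 54% of those with 2), and 4 of its 90 calls were false. These shares hold for that setting only. In the data 2353 genes were called, and recovery at an adjusted threshold depends on how many genes change. Alternatives were DESeq2 1.42.0, library size alone, upper-quartile factors, other filters on low counts, only the 4 libraries compared, a replicate block, a required log2 fold change and leaving out each library. A few list genes and a gene found by likeness are counted but not reported here by name.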

Additional observations from a re-analysis of the deposited data

How the results depend on the processing

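Among the 10 members and the list genes, no value that was called was counted as reversed. A required log2 fold change of at least 1 left 1183 genes for day 23 against 16, 282 for 31 against 23, 1691 for 38 against 31, 1202 for 45 against 38 and 3252 for 45 against 16, in place of 2296, 473, 3160, 2353 and 5175; of the 10 members it left 2 lower for day 38 against 31 and 6 for day 45 against 16. Leaving out each library in turn gave 1401 to 2477, 214 to 679, 1818 to 3679, 1216 to 2866 and 4073 to 5249 genes, and 2 to 5, 0 to 0, 4 to 6, 3 to 4 and 7 to 10 members called lower. The cause was not tested, beyond the fewer libraries of these fits. By canonical transcript length, the day 16 level of HMGA2 ranked 1 in place of 2, ahead of IGF2BP2. Without TMM factors, 33.3% of the calls for day 38 against 31 were higher, against 58.5%, and the median of all genes moved by −0.20. Apart from fits without a library, the balance of calls also crossed over for day 45 against 16 without TMM factors (44.9% higher, against 52.6%) and for day 45 against 38 without TMM factors (50.1%, against 43.3%), with upper-quartile factors (51.1%), in a fit of the 4 libraries (52.3%) and with the required fold change (50.2%), and for day 23 against 16 with upper-quartile factors (46.3%, against 51.2%), the 4 libraries (46.7%), the required fold change (46.3%) and the filter of 5 CPM (49.5%). Of 899 values of the 10 members under 18 alternatives, 848 stayed within their spread, 51 moved and 0 were counted as reversed. Values within their error did change sign without a library, with LIN28A from day 38 to day 45 (0.64) ranging from −4.04 to 4.69. Of 4317 values of called list genes, 376 lost their call and 0 were counted as reversed. The other 3941 kept it or had no adjusted p, as DESeq2 gives none for some genes.

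Same-numbered libraries of different days did not deviate together (r −0.03 to 0.02 over 10 pairs of days), so the numbers were not taken as pairing. With the replicate number as a block, 2703, 678, 3472, 2691 and 5460 genes were called in either direction and 5, 0, 6, 3 and 10 members were called lower, LIN28B being added for day 23 against 16 and LIN28A for day 38 against 31. With 2 libraries a day, and 4 to 23 counts summed over a day, depth limits what can be said of LIN28A after day 16, and of L1TD1 at day 45.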
